A study of Mus musculus with 3 samples.

Results

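Processed pseudogenes are copies of a messenger RNA that was reverse transcribed and inserted back into the genome. The members described here are the transcripts of the mRNA table whose GENCODE M21 transcript type is processed_pseudogene or transcribed_processed_pseudogene. There were 1990 of them, 1 per gene, among 56651 transcripts (3.51%). Of the members, 1907 carried the first type and 83 the second, which marks copies with some evidence of a transcript of their own. GENCODE M21 annotates 10245 such transcripts, so that 19.4% of them were among the rows analysed here.

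The libraries were made from apoptotic bodies (ABs), the membrane-bound fragments that dying cells release, and there was 1 library for each of 3 stages of osteoclast formation with no replicates. Bone marrow macrophages (BMMs) came from C57BL/6 mice of postnatal week 11 and were all first grown in M-CSF (50 ng/mL for 72 h). Per the labels, BMM-ABs stood for these cells without RANKL, pOC-ABs for preosteoclasts after 24 h and mOC-ABs for mature osteoclasts after 72 h or more with RANKL (100 ng/mL) and M-CSF (30 ng/mL). All 3 cultures were given alendronate (500 μM for 12 h) to form ABs, while the methods of the study name staurosporine for this step and a longer RANKL time for the mature cells. The sample titles name the cells and the description of the series speaks of ABs. RNA was purified on poly-T beads and sequenced in paired-end libraries.

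A processed pseudogene has no introns and usually no promoter of its own, and it often keeps the poly-A tract of the messenger RNA from which it was copied. Short messenger RNAs that are abundant in germ cells, above all those of ribosomal proteins, glycolytic enzymes and translation factors, have left the most copies in mammalian genomes. A read from a young copy can match its parent gene as well, so that a count on a copy need not come from the copy. How reads that match several places were divided between them is not given in the sources used here.

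The 3 copies of Gapdh with the most reads show how little sequence separates a member from its parent. Gapdh encodes glyceraldehyde-3-phosphate dehydrogenase, a glycolytic enzyme. Each copy differed from the closest annotated coding transcript, Gapdh-201, at 1 base over its whole length, and all 3 of these bases lie in the 120 bases printed here. The stretch is bases 266 to 385 of the coding sequence, in exons 3 and 4 of that transcript (chr6:125162977-125163194, minus strand, GRCm38). The copies have 1 exon each and lie at chr11:26786898-26787017 (Gm12070, plus strand), chr2:28934225-28934344 (Gm13394, minus strand) and chr5:95861979-95862098 (Gm5559, plus strand). Capitals mark the bases that differ from the parent, and positions are counted from 1 at the 5′ end of the printed stretch, with the parent's base first: G96A in Gm12070, A81C in Gm13394 and T120A in Gm5559.
Gapdh: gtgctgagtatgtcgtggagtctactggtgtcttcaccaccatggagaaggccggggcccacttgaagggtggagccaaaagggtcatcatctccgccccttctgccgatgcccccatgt
Gm12070: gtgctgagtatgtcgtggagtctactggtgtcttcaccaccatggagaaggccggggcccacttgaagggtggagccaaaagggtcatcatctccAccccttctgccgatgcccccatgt
Gm13394: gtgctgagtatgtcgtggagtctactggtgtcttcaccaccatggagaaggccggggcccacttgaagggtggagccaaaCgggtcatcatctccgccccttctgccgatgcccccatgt
Gm5559: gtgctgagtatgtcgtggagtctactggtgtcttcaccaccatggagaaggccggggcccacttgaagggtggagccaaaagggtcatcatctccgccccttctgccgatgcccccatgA

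The copies of Akr1b3 are shown because, of the 146 parents with at least 2 copies of 50 reads or more, Akr1b3 had the highest summed ratio of its copies in mOC-ABs against BMM-ABs, a choice made after the values were seen. Akr1b3 encodes aldose reductase, which reduces glucose to sorbitol. Over their whole length Gm12138 differed from Akr1b3-201 at 9 bases, Gm6736 at 5 and Gm6644 at 3. The stretch is bases 91 to 210 of the coding sequence, in exon 2 (chr6:34312664-34312783, minus strand), and the copies lie on the minus strand at chr11:40673647-40673766 (Gm12138), chr12:13455761-13455880 (Gm6736, in an intron of Nbas) and chr1:55444815-55444934 (Gm6644). Within it Gm12138 carries A9G, G54C, G111T and G120C, Gm6736 carries A9G, and Gm6644 matches the parent at every base.
Akr1b3: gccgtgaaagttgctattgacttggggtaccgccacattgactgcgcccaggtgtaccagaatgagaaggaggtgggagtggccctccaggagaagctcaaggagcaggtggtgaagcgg
Gm12138: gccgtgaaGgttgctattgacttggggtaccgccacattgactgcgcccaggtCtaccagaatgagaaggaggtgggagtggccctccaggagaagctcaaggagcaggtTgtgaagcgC
Gm6736: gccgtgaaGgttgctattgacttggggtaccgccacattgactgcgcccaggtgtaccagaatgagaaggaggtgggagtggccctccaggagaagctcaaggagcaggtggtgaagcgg
Gm6644: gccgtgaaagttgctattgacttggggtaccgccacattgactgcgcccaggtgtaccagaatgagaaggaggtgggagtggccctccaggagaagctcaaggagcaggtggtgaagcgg

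The next copies are shown because they had reads in some libraries and few or none in others, and because they differ more from the parent. Gm7434 is a copy of Rpl32, a protein of the large ribosomal subunit, with 18 differing bases over 407 aligned positions. Gm11836 is a copy of Myl6, a myosin light chain, with 11 differing bases and 9 gap positions over 450. Gm48909 is a copy of Rpl11, also of the large subunit, with 5 differing bases over 381. The stretches are bases 93 to 212 of the Rpl32 coding sequence (chr6:115807052-115807805, minus strand, exons 2 and 3), bases 16 to 135 of that of Myl6 (chr10:128492642-128493554, minus strand, exons 2 and 3) and bases 397 to 516 of that of Rpl11 (chr4:136050008-136050390, minus strand, exons 5 and 6). The copies lie at chr8:4391818-4391937 (Gm7434, plus strand), chr4:14433906-14434025 (Gm11836, plus strand) and chr14:48695619-48695738 (Gm48909, minus strand). Gm7434 carries C5T, G27A, T31C, G32T, C44T, T88C, G115A and C120T. Gm11836 carries A8C, G13A, T54C, C94T and C120T, and Gm48909 carries C13T, C114T, A116C and A120G.
Rpl32: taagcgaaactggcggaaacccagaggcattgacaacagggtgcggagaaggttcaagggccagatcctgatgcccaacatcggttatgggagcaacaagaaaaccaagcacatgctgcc
Gm7434: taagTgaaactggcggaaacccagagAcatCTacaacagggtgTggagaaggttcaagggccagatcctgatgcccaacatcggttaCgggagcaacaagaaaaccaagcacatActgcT
Myl6: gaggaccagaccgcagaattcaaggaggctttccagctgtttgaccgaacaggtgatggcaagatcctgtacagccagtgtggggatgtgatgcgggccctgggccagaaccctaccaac
Gm11836: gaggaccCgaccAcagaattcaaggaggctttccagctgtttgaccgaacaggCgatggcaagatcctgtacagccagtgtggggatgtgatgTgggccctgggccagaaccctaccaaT
Rpl11: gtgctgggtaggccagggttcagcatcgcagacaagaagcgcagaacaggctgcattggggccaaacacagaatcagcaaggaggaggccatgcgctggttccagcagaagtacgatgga
Gm48909: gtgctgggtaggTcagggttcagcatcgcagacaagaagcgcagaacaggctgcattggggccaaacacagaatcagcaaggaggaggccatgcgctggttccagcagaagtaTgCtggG

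The mRNA table held 9100082 reads for BMM-ABs, 7387317 for pOC-ABs and 7705592 for mOC-ABs. The macrophage markers Csf1r, Adgre1, Cd68 and Itgam had reads in every library. Levels are given in FPKM, which are reads scaled to the length of the transcript and to the total of the table. Their summed level was 903 FPKM for BMM-ABs, 656 for pOC-ABs and 656 for mOC-ABs. Cd68 made up most of it (597, 532 and 537 FPKM in this order). The others were highest in BMM-ABs: Csf1r had 235, 77.4 and 108 FPKM, Adgre1 27.1, 13.3 and 4.88, and Itgam 44.1, 32.8 and 6.63. The summed level of the osteoclast markers was 97.3 FPKM for BMM-ABs, 191 for pOC-ABs and 685 for mOC-ABs, with 8 of 9 markers listed. Of 16 markers of lymphocytes, granulocytes, red cells, platelets, osteoblasts, endothelium and fat, 3 were listed, with 5 reads or fewer each in any library. Each library pooled the RNA of many bodies, so that their number and the RNA in each cannot be told apart. A change per library total cannot tell more RNA of one kind per body from a change in the other RNAs that share the library.

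Processed pseudogenes took 7.75% of the mRNA table's reads from BMM-ABs. They took 9.00% of those from pOC-ABs and 9.49% of those from mOC-ABs. The exact (Clopper-Pearson) 95% intervals were 7.73 to 7.77%, 8.98 to 9.02% and 9.47 to 9.51%, and, without molecular identifiers in the reads, all intervals given here describe the error of counting alone. The sums were 705281, 664620 and 731277 reads. Per library total they were 1.16-fold higher in pOC-ABs than in BMM-ABs and 1.22-fold higher in mOC-ABs than in BMM-ABs. On the reads of the mRNA and the lncRNA table together the shares were 5.54%, 5.60% and 6.33%, so that the first of these differences depended on the denominator. Summed FPKM gave a larger part to the copies, 19.3 to 21.6%. The median copy was 645 bases long (quartiles 438 and 1002).

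**Figure D1:**
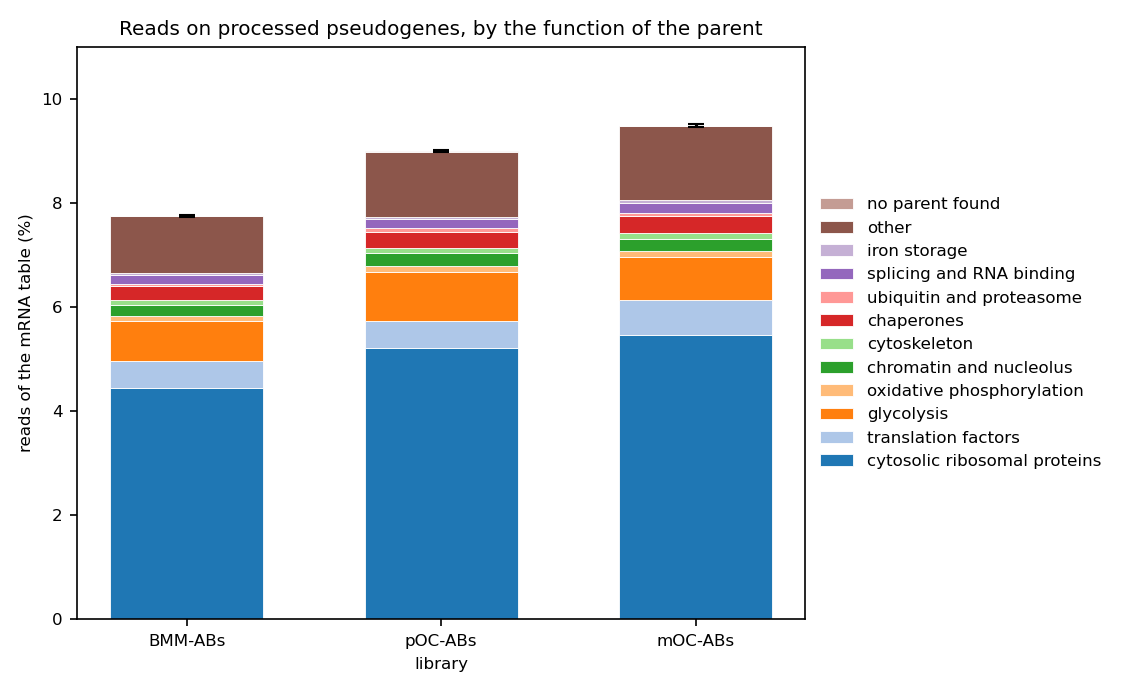
Share of the reads of the mRNA table (y axis, %) on processed pseudogenes in each library (x axis, 1 library per bar), stacked by the function of the parent gene; the error bar is the exact 95% interval of the whole share. The bars reach 7.75%, 9.00% and 9.49%, and copies of ribosomal protein genes make up the largest block in each.

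The reads were concentrated in few members. The 10 members with the most reads in a library held 20.2 to 21.5% of the reads on the class, the top 100 held 71.4 to 72.6%, and 41 to 44 members sufficed for 50% of them. At the other end, 758 members (38.1%) had fewer than 20 reads over the 3 libraries, against 38.8% of all transcripts of the table. The median was 40 reads for members and 35 for all transcripts. A read was present in 1911 members for BMM-ABs, 1865 for pOC-ABs and 1886 for mOC-ABs, and 1737 had one in every library. Every row of the table had at least 3 reads in all, so these counts are over rows that had already been selected for having reads.

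The level was higher where a copy shared more sequence with coding transcripts. For each member, every stretch of 100 bases was looked up in the annotated protein-coding transcripts. Only exact matches on the same strand counted. Matches in other processed pseudogenes did not count, so a member without a shared window may still share reads with another copy. In 600 members (30.2%) no such window was found, and these held 1.43 to 1.47% of the reads on the class, with a median of 8 reads over the 3 libraries. In 1006 members up to 50% of the windows were found (median 63 reads), in 278 more than 50% but not all (median 568), and in 100 every window (median 500.5). The 100 members made wholly of such windows were 5.03% of the class and held 17.9 to 18.4% of its reads. Their median level was 38.9, 42.3 and 44.1 FPKM (BMM-ABs, then pOC-ABs, then mOC-ABs), against 0.659, 0.566 and 0.626 FPKM in the members without a shared window. Across the 1906 members with an aligned parent, identity to the parent and FPKM were related with a Spearman rho of 0.61 to 0.64. The points share libraries and parents, so this is a description.

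**Figure D2:**
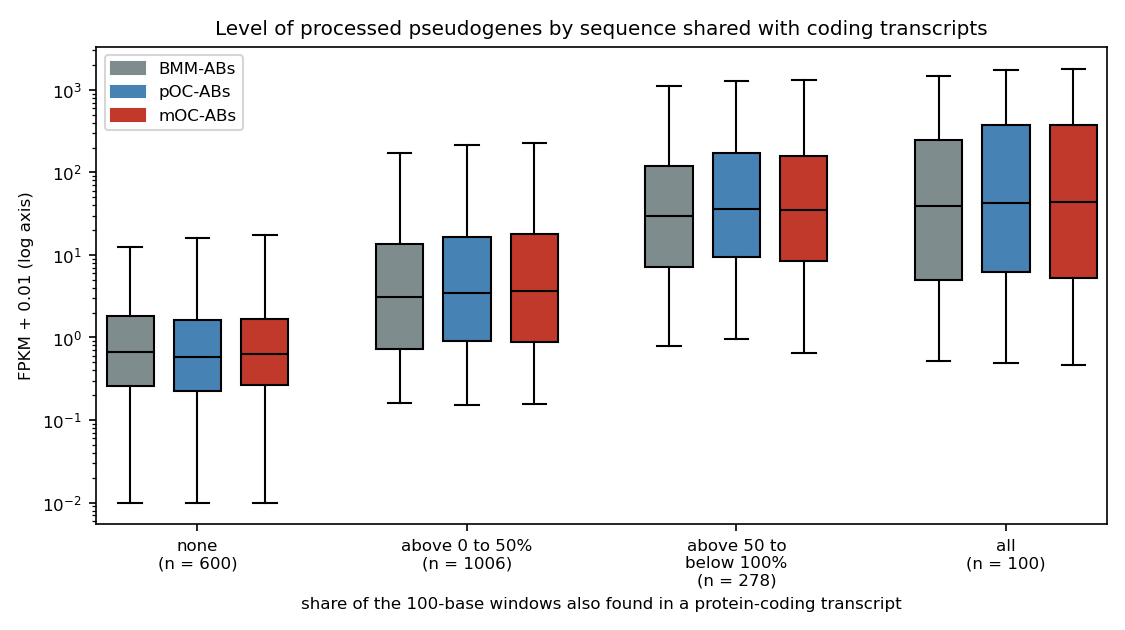
FPKM plus 0.01 (y axis, log scale) of processed pseudogenes, grouped by the share of their 100-base windows that is also found in a protein-coding transcript (x axis, with the number of members); boxes give the quartiles and the median over members, whiskers the 5th and 95th percentiles, and colours the 3 libraries. Median levels rise from below 1 FPKM without a shared window to about 40 FPKM where every window is shared, and the 3 libraries differ little within a class.

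The median identity to the closest parent was 97.2% (quartiles 94.8 and 99.0%). Of the 1906 aligned members, 1430 covered at least 95% of the coding sequence of the parent, and 424 of these also kept an open reading frame of at least 95% of its length. Those 424 copies held 48.4 to 48.9% of the reads on the class, with a median of 254 reads over the 3 libraries and a median identity of 99.0%. The other 1006 full-length copies had a median of 41 reads and a median identity of 96.6%, so a long frame and a high identity went together. A frame was counted only with its start and stop codon inside the annotated copy. A copy cut short at an end can thus fall among the 1006. Rps23-ps1 does, being identical to its parent with a longest frame of 11.1% of the parent's coding sequence. Whether the frame is that of the parent was not checked. Nothing here shows that a protein is made from these copies.

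Most members stood apart from other genes. No exon or intron of another gene overlapped 1246 members, 616 lay in an intron, 53 overlapped an exon on the same strand and 75 an exon on the opposite strand. The first group held 59.8 to 61.1% of the reads on the class, the members in introns 28.5 to 29.9%. Members in introns split evenly by strand, with 320 on the strand of the host gene and 296 on the other, and median reads of 27 and 34.5.

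The parent gene was identified by the gene name for 292 members and by alignment for 1616 others, and 82 had none. Where both identifications gave a gene, they named the same one in 284 of 290 members. The 884 parents with rows in the table had between 1 and 115 copies each, and 618 had 1. For 581 of the parents, every annotated coding transcript was among the rows analysed here; for the others the parent level given here lacks at least 1 transcript.

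Among pairs identified by name with at least 20 reads on the copy, the copy had a median of 0.667 times the FPKM of the parent gene in BMM-ABs (217 pairs), 0.646 times in pOC-ABs (215 pairs) and 0.711 times in mOC-ABs (217 pairs). The quartiles of the log2 ratio in BMM-ABs were -3.31 and 1.22. The copy exceeded its parent in 96, 95 and 95 of these pairs. Among parents found by alignment the copies were lower, with medians of 0.210, 0.193 and 0.234 times the parent. The pairs with a parent in the name are mostly copies of ribosomal protein genes, 151 of 292. Between the levels of copy and parent the Spearman rho was 0.17 to 0.21 over 1890 members in each library, also a description.

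**Figure D3:**
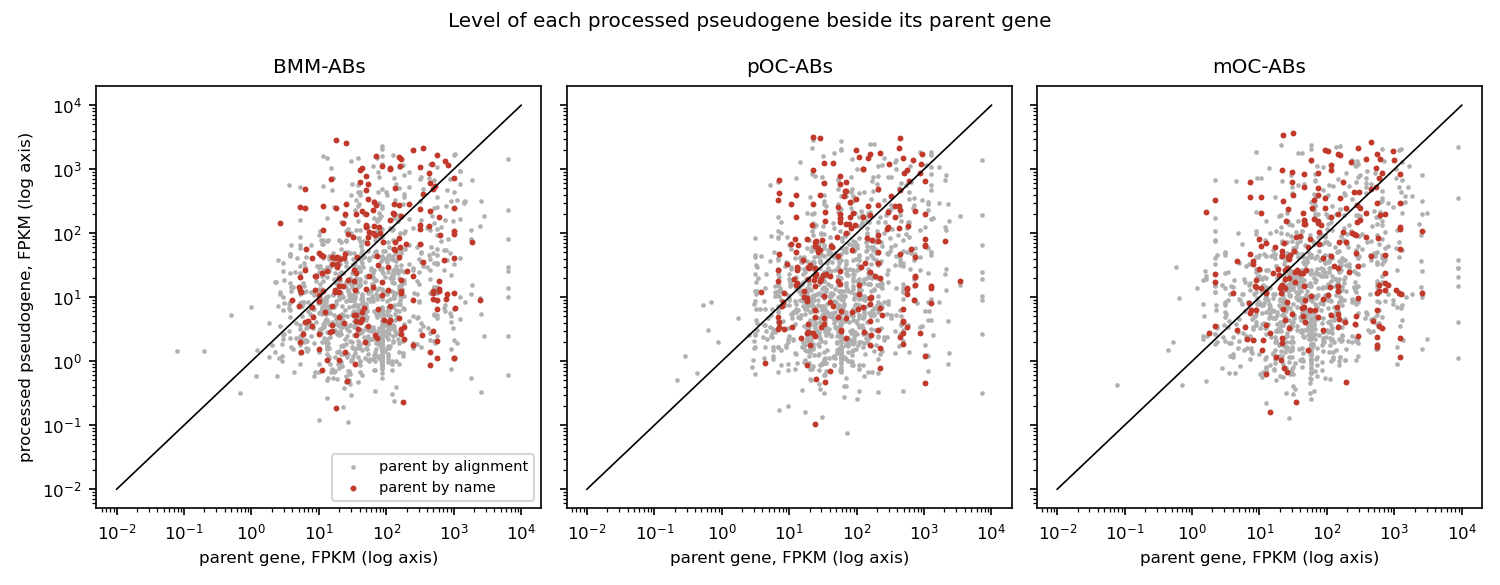
FPKM of each processed pseudogene with at least 20 reads (y axis, log scale) against the summed FPKM of its parent gene (x axis, log scale), 1 panel per library, with parents identified by name in red and by alignment in grey; the line marks equal levels and values of 0 are not drawn. Points lie on both sides of the line in every library, with 96 red points above it in BMM-ABs.

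Among the pairs identified by name, the highest ratio of copy to parent belonged to Rps23-ps1, which matches Rps23, a protein of the small subunit, over all of its 425 bases. Rps23-ps1 had 2870 FPKM, 3161 FPKM and 3424 FPKM in this same order of libraries, kept from here on, whereas the Rps23 gene was listed at 17.6, 22.9 and 22.5 FPKM, with its only coding transcript in the table. Rpl28-ps1, identical to Rpl28 over 414 bases, had 2557, 3073 and 3695 FPKM against 24.9, 28.3 and 31.4. Rps13-ps1 (490, 686 and 642 FPKM), Rpl21-ps15 (260, 328 and 336 FPKM) and Smt3h2-ps4 (144, 282 and 218 FPKM) stood above Rps13, Rpl21 and Sumo2 in the same way, at 79.8, 49.4 and 54.3 times the parent in BMM-ABs. Rps13 and Rps23 encode proteins of the small subunit, Rpl21 and Rpl28 proteins of the large subunit, and Sumo2 a ubiquitin-like modifier. Rpl21 and Sumo2 each lacked 1 coding transcript among the rows analysed here.

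Among the lowest ratios were those of copies of abundant parents. Rps15-ps2 had 36, 58 and 39 reads and 9.03 FPKM in BMM-ABs, against 2467 FPKM for Rps15. Rpl7a-ps5 had 48, 24 and 39 reads, Rplp0-ps1 had 99, 102 and 83, and Mif-ps3 had 35, 36 and 34. In BMM-ABs the first of these was at 0.00366 times its parent and the others, in this order, at 0.0114, 0.0115 and 0.0142 times. Identity to the parent was 94.1 to 98.1% in these 4 copies. The parents are ribosomal protein genes apart from Mif, which encodes a secreted regulator of macrophages.

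Copies of cytosolic ribosomal protein genes were the largest group, with 517 members from 76 parents. They held 57.2%, 58.0% and 57.6% of the reads on the class. Their sums were 403663, 385168 and 421284 reads, against 257471, 247426 and 267129 on the listed transcripts of the parent genes. The copies thus held 60.9 to 61.2% of the reads of both. Some of these parents lacked coding transcripts, such as Rpl10a with 1 of 5 listed and Rpl29 with 3 of 6. The share therefore holds for the listed transcripts only and is no measure of the genes. Copies and parents moved by nearly the same amount. In pOC-ABs the log2 ratio to BMM-ABs was 0.23 (0.23 to 0.24) for the copies and 0.24 (0.24 to 0.25) for the parents, and in mOC-ABs it was 0.30 (0.30 to 0.31) and 0.29 (0.29 to 0.30).

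Rpl3-ps1, on chromosome X, had the most reads of the ribosomal group, 17038, 13231 and 15456. Its parent Rpl3, with 2 of 3 coding transcripts listed, had 1763, 1269 and 1421. Gm8730, a copy of the stalk protein gene Rplp0 at 98.7% identity, had 14718, 12889 and 14812 reads against 12255, 12044 and 12050 on Rplp0. Here copy and parent were of like size, with 9.24% of the windows of Gm8730 shared with a coding transcript. Rpl19-ps11 had 11338, 13604 and 12115 reads against 2379, 2451 and 2552 on Rpl19, and was highest in pOC-ABs per library total. Rps6-ps4, identical to Rps6 over 750 bases, had 13777, 9972 and 12588 reads against 2034, 1421 and 2060. Gm14303, identical to Rps29 over its 171 bases, reached 1623, 2851 and 2355 FPKM with 2525, 3602 and 3103 reads.

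A pair of copies of Rps2, which encodes a protein of the small subunit, moved in opposite directions. Rps2-ps10 was counted at 5120 (BMM-ABs), 8057 (pOC-ABs) and 4297 (mOC-ABs) reads, a log2 ratio of 0.95 (0.90 to 1.01) in pOC-ABs against BMM-ABs. Rps2-ps13 had 7720, 3934 and 6091 reads, a log2 ratio of -0.67 (-0.73 to -0.62) in the same comparison. The 41 copies of Rps2 together collected 22221, 18481 and 19310 reads with a log2 ratio of 0.03 (0.01 to 0.06), while the gene itself, with 3 of 4 coding transcripts listed, had 346, 231 and 221 reads. The second copy was chosen after its values were seen. Other parents also had copies with unlike ratios. Among the 146 parents with at least 2 copies of 50 reads or more, the range of the copies' log2 ratios in pOC-ABs against BMM-ABs had a median of 0.58, it exceeded 1 for 42 parents, and copies of 64 parents had both signs. In mOC-ABs against BMM-ABs the median range was 0.44, and 14 parents exceeded 1. A range includes the counting error of copies with few reads and cannot shrink as copies are added. How much of these ranges is counting error was not tested.

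Copies of glycolytic enzyme genes made up 131 members from 9 parents, of which Gapdh alone had 115. They held 10.1%, 10.3% and 8.61% of the reads on the class. Gm13394 had the most reads of all members, with 20937, 20338 and 18532. Gm12070 had 18777, 14570 and 15701 reads and Gm5559 had 10801, 15232 and 10326. In pOC-ABs against BMM-ABs the log2 ratio was 0.26 (0.23 to 0.29) for Gm13394, -0.07 (-0.10 to -0.03) for Gm12070 and 0.80 (0.76 to 0.83) for Gm5559, the copies that differ from each other by the bases printed above. The sum over the 115 copies was 55408, 55270 and 49006 reads. The Gapdh gene was listed at 915, 470 and 456 reads over 9 of its 13 annotated transcripts, and Gapdh-201, the transcript closest to the copies, was not analysed here, so this ratio of copies to parent is no measure of the gene. The 2 copies of Pgk1, encoding phosphoglycerate kinase, had 6270, 5993 and 5102 reads against 8844, 7874 and 7508 on the parent, for which every annotated transcript was present.

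**Figure D4:**
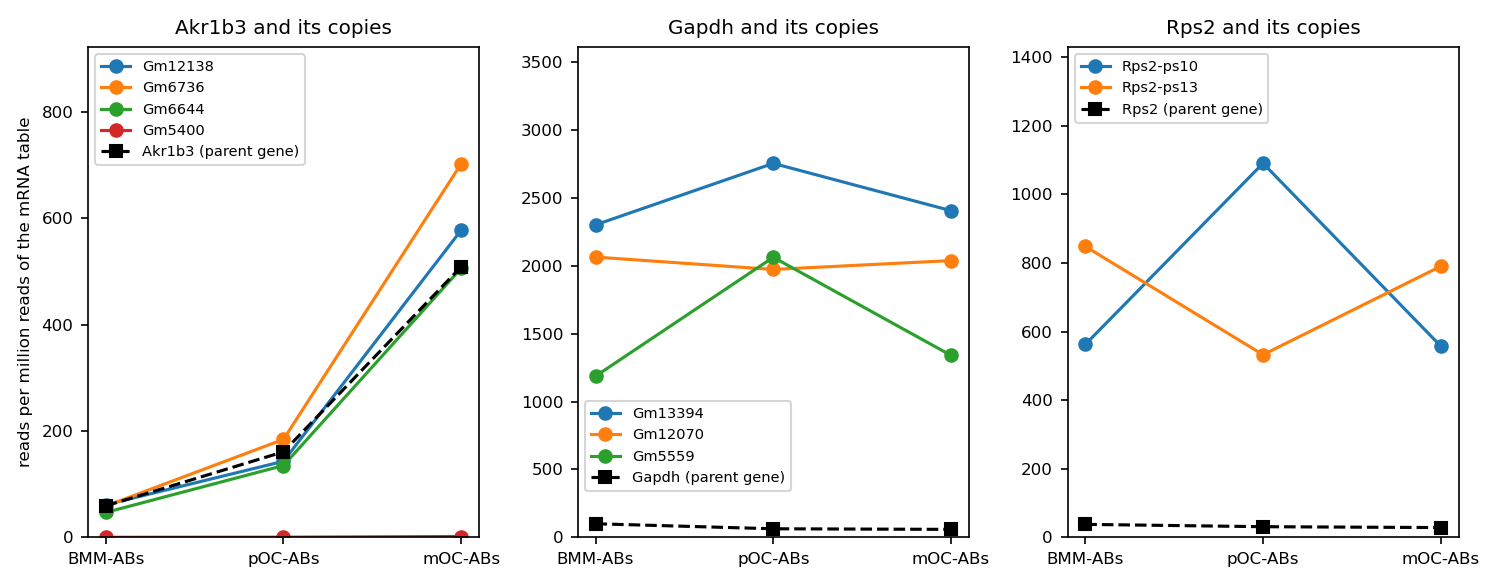
Reads relative to all mRNA reads of the library (y axis, counted in CPM) in the 3 libraries (x axis) for copies of Akr1b3, Gapdh and Rps2 (coloured circles) and for the parent gene summed over its listed transcripts (black squares). The 3 well-covered copies of Akr1b3 rise with the parent, whereas copies of Gapdh and of Rps2 go apart between the libraries.

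The Akr1b3 copies rose together with their parent. Gm6736 went from 536 reads (BMM-ABs) to 1361 (pOC-ABs) and 5410 (mOC-ABs). Gm12138 had 559, 1057 and 4449, and Gm6644 had 427, 998 and 3898. Akr1b3 itself had 539, 1188 and 3919 reads, with all 6 annotated transcripts in the table. In mOC-ABs against BMM-ABs the log2 ratios were 3.58 (3.45 to 3.71), 3.23 (3.11 to 3.36) and 3.43 (3.29 to 3.58) for the copies and 3.10 (2.97 to 3.23) for the parent, all intervals far above those of the class. The fourth copy, Gm5400, at 93.0% identity and without a shared window, had counts of 2, 3 and 13 with a log2 ratio of 2.94 (0.80 to 6.13). Whether reads on the copies came from Akr1b3 was not tested.

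Copies of translation factor genes numbered 45 and had 47185, 38579 and 51823 reads. Gm13456 led them with 18008, 13929 and 23142 reads. Its parent Eef1a1, which delivers aminoacyl-tRNA to the ribosome, had 92919, 90936 and 112290 reads. At 96.8% identity Gm13456 is among the less similar of the members with many reads, and 23.1% of its windows were shared. In mOC-ABs against BMM-ABs its log2 ratio was 0.60 (0.57 to 0.63) and that of Eef1a1 0.51, and in pOC-ABs against BMM-ABs they were -0.07 (-0.10 to -0.04) and 0.27. The whole group had a log2 ratio of 0.38 (0.36 to 0.39) in mOC-ABs against BMM-ABs and 0.01 (-0.01 to 0.03) in pOC-ABs against BMM-ABs.

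Copies of oxidative phosphorylation genes (41 members) and of ubiquitin and proteasome genes (48 members) had the highest group ratios in pOC-ABs against BMM-ABs, 0.48 (0.43 to 0.52) and 0.59 (0.53 to 0.65) on the log2 scale. The parents stood at 0.66 and 0.40. The groups were small, with 7873 to 9107 and 3721 to 4547 reads in a library. Gm10175, a copy identical to Atp5g2, a subunit gene of the ATP synthase, led the first group with 2249, 1860 and 2215 reads against 22, 26 and 23 on Atp5g2. Smt3h2-ps4 led the second group with 378, 601 and 484 reads.

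In the chaperone group (35 members) Gm15459, a copy of the heat shock cognate gene Hspa8, had 12034, 8694 and 10750 reads against 9807, 7307 and 9874 on Hspa8. Copies of cytoskeleton genes (33 members) were led by Gm12715, a copy of the actin gene Actg1 with 3715, 2850 and 3442 reads. Copies of splicing and RNA-binding genes (65 members) were led by Gm16580, a copy of the poly-A binding protein gene Pabpc1 with 3063, 2363 and 3543 reads. Of the 5 copies of the ferritin light chain gene Ftl1, Gm15590 had 3365, 2722 and 3453 reads against 16093, 13965 and 18664 on Ftl1. These groups had log2 ratios of 0.19, 0.11, 0.07 and 0.01 in pOC-ABs against BMM-ABs, all of which turn negative when scaled to the reads of both tables. In mOC-ABs against BMM-ABs they had 0.23, 0.20, 0.21 and 0.31.

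In the chromatin and nucleolus group (79 members) the leading member was Hist1h2al, with 4587, 2514 and 2974 reads. It was assigned to H2afj at 89.7% identity because only genes with more than 1 exon could be parents, which leaves out most histone genes. Its log2 ratio was -0.57 (-0.64 to -0.50) in pOC-ABs and -0.39 (-0.45 to -0.32) in mOC-ABs, both against BMM-ABs. Gm6722, a copy of the histone variant gene H2afz without a shared window, had 120, 173 and 63 reads, and H2afz had 137, 154 and 61. Both were lowest in mOC-ABs. Outside the named groups lay 909 members with 98044, 92773 and 110127 reads. Among them Gm4735, assigned to Eno1b by alignment, had 12965, 10865 and 13333 reads against 9047, 7900 and 9445 on Eno1b. Of Eno1b, 1 of 2 coding transcripts was listed, and whether it was the source of the copy was not tested. Eno1b encodes an enolase, a glycolytic enzyme, but was not in the list that defined the glycolytic group. The 3 members assigned to it, with 13379, 11129 and 13706 reads, are therefore not in that group's sums.

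Few members passed 2-fold in reads per library total between any 2 libraries. In pOC-ABs against BMM-ABs, 85 of 1098 members with at least 20 reads over both were higher and 25 lower, 7.74% and 2.28%. Over all transcripts of the table with that many reads the shares were 13.8% and 21.1%. In mOC-ABs against BMM-ABs, 62 of 1112 were higher and 30 lower (5.58% and 2.70%), against 12.6% and 23.9% of all transcripts. In mOC-ABs against pOC-ABs, 41 of 1096 were higher and 36 lower (3.74% and 3.28%), against 14.6% and 18.4%. Apart from 30, the genes of the members had no other transcript in the table. Among coding transcripts listed alone for their gene the shares were 4.89% and 8.19%, 5.32% and 12.2%, and 5.09% and 8.61% in the same order, so that lower calls were rarer among members while higher calls were not in the comparisons with BMM-ABs.

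The balance of calls depended on the scaling. Scaling to both tables lowered every log2 ratio to BMM-ABs by 0.20 (pOC-ABs) or 0.10 (mOC-ABs). The upper quartile raised them by 0.14 and 0.23. Positive ratios smaller than the first shifts, and negative ones closer to 0 than the second, thus change sign. Of the members past 2-fold in pOC-ABs against BMM-ABs, 77.3% were higher, but 55% were when reads were scaled to the mRNA and lncRNA tables together and 85.4% when scaled to the upper quartile. In mOC-ABs against BMM-ABs the share was 67.4%, against 59.3% and 86.3%, and 80.7% with median-of-ratios size factors. In mOC-ABs against pOC-ABs it was 53.2%, against 66.7%, 64.5% and 66.7%. The median log2 ratio of the members was 0.22, 0.28 and 0.07 in the 3 comparisons, and that of all transcripts -0.09, -0.15 and -0.06.

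Members without a shared window were called in both directions. Of 118 such members in mOC-ABs against BMM-ABs, 14 were higher (11.9%) and 13 lower (11.0%). Of the 85 whose windows were all shared, 1 was higher (1.18%) and 2 lower (2.35%). In pOC-ABs against BMM-ABs the shares were 6.14% and 7.89% of 114, and 9.30% and 1.16% of 86. In mOC-ABs against pOC-ABs they were 5.71% and 2.86% of 105, and 1.16% and 3.49% of 86. The 2 classes also differ in depth, with medians of 8 and 500.5 reads when members with few reads are included. How much of the difference in calls is counting error was not tested. Without a shared window, the share of higher calls in mOC-ABs against BMM-ABs was near the 12.6% of all transcripts, and that of lower calls was below their 23.9%. In the other comparisons, higher calls (6.14% and 5.71%) were below the 13.8% and 14.6% of all transcripts. Lower calls (7.89% and 2.86%) were below their 21.1% and 18.4%.

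**Figure D5:**
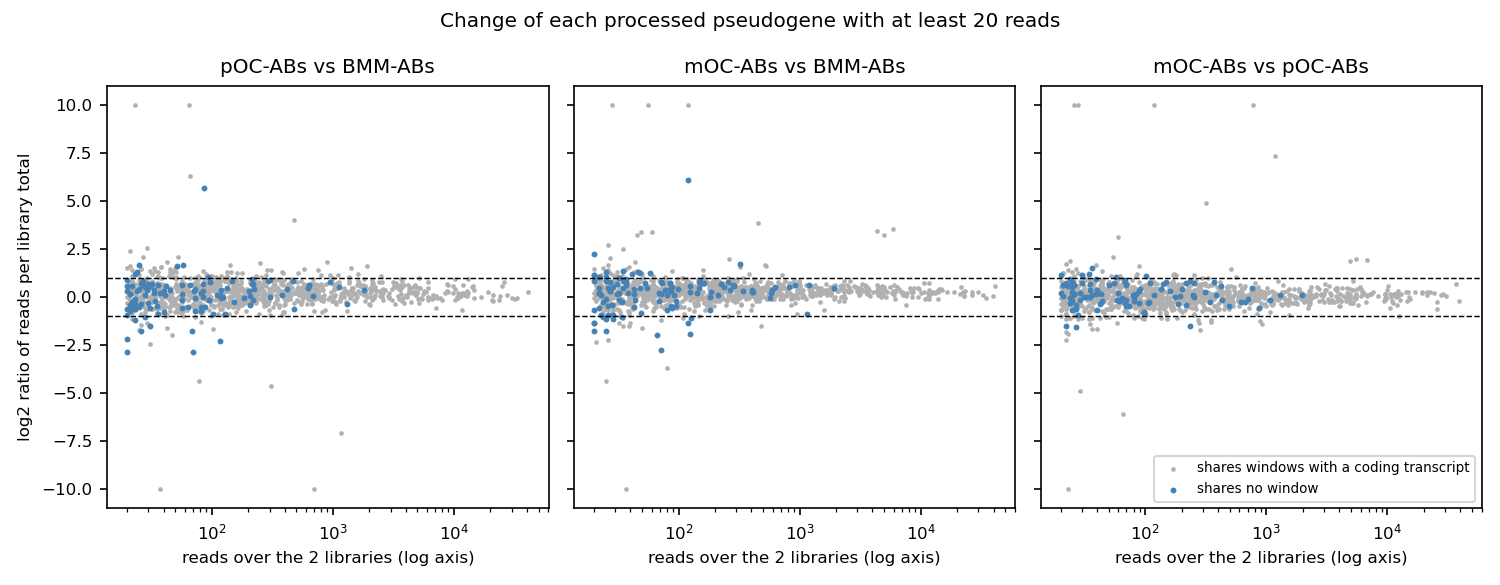
Log2 ratio of reads per library total (y axis) against the reads over both libraries (x axis, log scale) for each processed pseudogene with at least 20 reads, 1 panel per comparison; blue points share no 100-base window with a coding transcript, dashed lines mark 2-fold, and members at 0 in a library are drawn at the edge. Most points lie within the dashed lines, and the copies Gm12138, Gm6736 and Gm6644 of Akr1b3 are the points with over 1000 reads above them in mOC-ABs against BMM-ABs.

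The largest ratios came from members that were at or near 0 in at least 1 library. Gm7434, the copy of Rpl32 printed above, had counts of 2, 84 and 117, log2 ratios of 5.69 (3.80 to 8.76) and 6.11 (4.23 to 9.17) against BMM-ABs. Rpl32 had 8920, 8184 and 10048 reads and did not move alike. Gm11836, the copy of Myl6, had 0 reads in BMM-ABs and pOC-ABs and 119 in mOC-ABs. With 3 reads put in place of each 0, its mOC-ABs level was 46.8-fold higher than in BMM-ABs and 38.0-fold higher than in pOC-ABs. The exact lower limits, which include the counting error of both libraries, were 5.23 and 4.93 on the log2 scale. Myl6 had 641, 795 and 591 reads. Gm8242, a copy of the prefoldin-like gene Uxt, had 0, 65 and 56 reads. With 3 reads in place of the 0 it was 26.7-fold and 22.0-fold higher than in BMM-ABs. The exact lower limits were 4.40 and 4.12 on the log2 scale. Gm18537, a copy of Dennd4c in an intron of Stambp, had 1, 65 and 1 reads.

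A group of members was nearly absent from pOC-ABs alone. Gm48909, the copy of Rpl11 printed above, had counts of 705, 0 and 774. With 3 reads in place of the 0, its pOC-ABs level was 191-fold below that of BMM-ABs. The exact limit was -7.27 on the log2 scale, whereas Rpl11 had 479, 415 and 372 reads. Gm15725 had 1162, 7 and 1176 reads and lies in an exon of Lrrc58 on the same strand (chr16:37882542-37883631), a gene with 2102, 2955 and 1789 reads. Lrrc58 went the other way, with a log2 ratio of 0.79 in pOC-ABs against BMM-ABs, where Gm15725 had -7.07. In mOC-ABs against pOC-ABs these were -0.78 and 7.33. Whether reads of this shared locus were assigned differently to these entries was not tested. Amd-ps3, a copy of the polyamine synthesis gene Amd1, had 299, 10 and 309 reads against 320, 222 and 325. In each of the 3 the values of BMM-ABs and mOC-ABs were close, and Rpl11, Lrrc58 and Amd1 were not near 0 in pOC-ABs. Gm15725 aligned to Lrrc58 itself, outside its coding sequence, so that Lrrc58 is the gene it overlaps and no parent of a copy. The same held for 12 other members, whose gene found by alignment was the one they overlap. For Amd1, 1 of 2 coding transcripts was listed. The copies shared 47.2% (Gm48909), 100% (Gm15725) and 89.0% (Amd-ps3) of their windows with coding transcripts.

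Other members were lower after RANKL. Gm19040, in an intron of Atg7, had 63, 7 and 8 reads, and Gm17849, in an intron of Osbpl8 and without a parent, had 55, 13 and 12. Gm13502 was not of this kind. Identical over its length to Idi1, an isomerase gene of cholesterol synthesis, it had 98, 213 and 68 reads beside 532, 972 and 502 on Idi1, both highest in pOC-ABs. Its log2 ratio was 1.42 (1.07 to 1.78) in pOC-ABs against BMM-ABs and -0.29 (-0.76 to 0.17) in mOC-ABs against BMM-ABs.

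The ratios of copies and parents were related across pairs. Over 175 or 176 pairs identified by name with at least 50 reads on each side, the Spearman rho was 0.49 in pOC-ABs against BMM-ABs, 0.39 in mOC-ABs against BMM-ABs and 0.49 in mOC-ABs against pOC-ABs, and Pearson's r was 0.42, 0.35 and 0.40. With parents found by alignment the rho was 0.44 to 0.50 over 630 to 644 pairs. The pairs share parents, libraries and possibly reads, so these values are a description across genes, which are no replicates.

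The 83 transcribed processed pseudogenes had 46141, 45304 and 45044 reads, 6.16 to 6.82% of those on the class. Gm6472, a copy of Rps7, had 6255, 6455 and 6172 reads, and Gm15500, identical to Rpl5, had 5855, 5165 and 6077. In pOC-ABs against BMM-ABs, 4 of 50 with at least 20 reads were higher and 1 lower. These are 8% and 2%, beside 7.74% and 2.28% of the whole class and 13.8% and 21.1% of all transcripts. Of 50 in mOC-ABs against BMM-ABs, 3 were higher and 1 lower (6% and 2%), beside 12.6% and 23.9% of all transcripts. In mOC-ABs against pOC-ABs 1 of 48 was higher and 2 lower (2.08% and 4.17%), beside 14.6% and 18.4% of all transcripts.

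Members that share not even a window of 50 bases with a coding transcript numbered 140, with 1168, 658 and 857 reads in all. The 3 with the most reads were 2810025M15Rik (84, 131 and 240 reads), Gm46223 (127, 79 and 137) and Gm8873 (89, 39 and 30), all without an identified parent and apart from other genes. 2810025M15Rik, a transcribed processed pseudogene at chr1:157419902-157420152, had a log2 ratio of 1.75 (1.39 to 2.13) in mOC-ABs against BMM-ABs and 0.94 (0.54 to 1.35) in pOC-ABs against BMM-ABs. Gm8873 had -1.33 (-1.98 to -0.72) and -0.89 (-1.47 to -0.33). These 3 members were chosen for their reads after the windows had been counted.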

How the data were processed

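The authors deposited read counts and FPKM values for each transcript of an mRNA table and an lncRNA table, 1 column per library. FPKM values as deposited used the total count of the mRNA table and, for most transcripts, the length annotated in GENCODE M21, which was checked on the values. The submitters' processing notes name HISAT2, StringTie, FastQC and GRCm38, without versions. Columns named 0h, 24h and 72h were matched to BMM-ABs, pOC-ABs and mOC-ABs through the growth protocol. The 3 FPKM columns of the lncRNA table and the circRNA table were not used.

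Transcript types, loci and sequences came from GENCODE M21, in which 56440 of 56651 identifiers were found. A parent was taken from the name before -ps or -rs, or else from the best BLAST+ 2.17.0 alignment to a multi-exon coding gene with at least 80% identity over 50% of the copy. Levels of a parent are sums over its listed transcripts. Ratios used reads per total of the mRNA table, and members past 2-fold needed at least 20 reads over both libraries. With 1 library per group no test was made, and intervals are exact binomial intervals of the reads. Only the exact interval and the 2-fold rule were tested on simulated data. Python 3.11.15, pandas 2.3.3 and scipy 1.17.1 were used.

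Members and lists were chosen with earlier results of these data known. Genes named are the 10 members with the most reads, the 5 with the highest FPKM, the 3 highest and 3 lowest ratios of each comparison (at least 50 reads), the leading member of each parent group, 3 transcribed processed pseudogenes, and the 5 highest and 5 lowest ratios of copy to parent. Of the members under this rule, 2 are not reported here. Members named outside this rule are marked in the text or belong to a parent already described. Alternatives were other scalings, filters, pseudocounts, member sets and parent definitions.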

Additional observations from a re-analysis of the deposited data

How the results depend on the processing

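With 1 library per group, no replicate could be left out, and no paired analysis was possible because each group has 1 library. Depth limits the 758 members under 20 reads. For members higher past 2-fold (85, 62 and 41 in pOC-ABs against BMM-ABs, mOC-ABs against BMM-ABs and mOC-ABs against pOC-ABs), the counts were 313, 279 and 241 without a read minimum, 51, 24 and 22 with at least 50 reads, 54, 36 and 26 on FPKM plus 1, 53, 37 and 27 among members overlapping no other gene, and 7, 14 and 6 among those without a shared window. For members lower past 2-fold (25, 30 and 36) they were 252, 217 and 264 without a read minimum, 10, 10 and 17 with at least 50 reads, and 9, 13 and 3 without a shared window. FPKM plus 1 gave 15 and 23 lower in the last 2 comparisons, and members overlapping no other gene gave 10 and 15 in the first 2. Without a read minimum, higher calls in the first comparison were 15.8% of members and 17.6% of all transcripts, a smaller gap than 7.74% and 13.8%, and lower calls 12.8% and 25.9%. With at least 50 reads, higher calls were 6.10% and 12.2% and lower calls 1.20% and 18.2%. On FPKM plus 1 they were 4.92% and 8.91%, and 1.55% and 12.7%. In mOC-ABs against BMM-ABs, members and all transcripts had 14.2% and 15.6% higher calls without a read minimum. They had 2.85% and 11.5% with at least 50 reads, and 3.24% and 8.51% on FPKM plus 1. Lower calls in these settings were 11.0% and 29.1%, 1.19% and 19.6%, and 1.35% and 13.8%. In mOC-ABs against pOC-ABs, higher calls in the same settings were 12.2% and 17.9%, 2.64% and 12.7%, and 2.37% and 9.76%. Lower calls there were 13.4% and 25.8%, 2.04% and 14.9%, and 2.10% and 11.4%. Scaling to both tables gave 55 higher and 45 lower in the first comparison, the upper quartile 129 and 132 higher in the first 2, and median-of-ratios factors 96 higher in the second. Fewer members enter the stricter sets by construction, and the cause of the other differences was not tested.

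The log2 ratio of the summed reads (0.22, 0.29 and 0.08) was 0.016, 0.19 and 0.18 scaled to both tables, 0.26, 0.44 and 0.17 with median-of-ratios factors, and 0.36, 0.52 and 0.17 with the upper quartile. It was 0.18, 0.28 and 0.10 among members overlapping no other gene and 0.19, 0.25 and 0.065 among those without a shared window. Without the member with the most reads it was 0.30 and 0.085 in the last 2. The share of reads was 5.54%, 5.60% and 6.33% of both tables, 7.52%, 8.72% and 9.25% without the member with the most reads, 4.73%, 5.38% and 5.77% on members overlapping no other gene, and 0.114%, 0.130% and 0.136% on those without a shared window. The median log2 ratio of copy to parent was -1.97, -1.92 and -1.58 without a read minimum and -2.25, -2.38 and -2.10 with parents found by alignment. Under the other scalings, which shift all members alike, 324 of 348 ratios of named members kept the sign, and the 24 that did not had a main value of at most 0.14 in size. Of 90 ratios of parent groups, 13 changed sign. The sets without a shared window or without members made wholly of shared windows, the parents found by alignment and the pairs with every coding transcript of the parent listed were added after the data had been seen.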
